A study of Mus musculus with 6 samples.

Results

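The unfolded protein response and the integrated stress response were followed through 40 mouse genes chosen by symbol: stress sensors, transcription factors, feedback regulators, chaperones and degradation factors of the endoplasmic reticulum (ER), and enzymes and transporters of amino acid supply. They were found by symbol among the 55487 rows of a raw count table of whole dorsal skin, where they matched 41 rows because Ddit3 has a second one. RNA was measured on day 2 in 3 control libraries and in 3 libraries of skin treated with DPCP. DPCP, or diphenylcyclopropenone, is a contact allergen used to set off contact hypersensitivity. The labels give neither the strain, age, sex or genotype of the mice nor what the control skin received. Nor is it stated that each library is a different mouse, so the p-values describe the spread between libraries, which may be technical.

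Proteins that are secreted or held in membranes fold in the ER, and unfolded proteins there activate its sensors: the kinase and RNase IRE1 (gene Ern1), the membrane-bound factor ATF6 (Atf6) and the kinase PERK (Eif2ak3). IRE1 splices the mRNA of Xbp1, ATF6 is cut to release a transcription factor, and both programs raise chaperones and degradation factors. PERK belongs to a family of kinases that phosphorylate the translation initiation factor eIF2alpha, which lowers general protein synthesis while favouring translation of Atf4. ATF4 in turn switches on genes for amino acid synthesis, amino acid uptake and tRNA charging, and genes that limit the response. In skin these pathways are known from keratinocyte differentiation and from cells with heavy secretion, such as fibroblasts and plasma cells. The sensors, Xbp1 and ATF4 are controlled largely by splicing, cleavage, phosphorylation or translation, which counts per gene do not measure.

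DNA motifs of these pathways were looked for in the members' promoters, and the stretches around the matches are printed because the genes that hold them are those whose levels are given next. RefSeq promoters of GRCm38.p6, from 250 bases before to 50 bases after the start, were at hand for 35 of the 40 members. None was found in that table for Atf6, Eif4ebp1, Hyou1, Manf and Slc7a5. The ER stress element, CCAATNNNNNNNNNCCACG, is bound by ATF6 together with NF-Y. It was present on either strand in 5 members, Hspa5, Calr, Canx, Creld2 and Pdia6, all ER chaperones or folding enzymes, and in 37 of 27025 genes (0.137%). Each is written on the gene's strand, 5′ to 3′, with the fixed letters of the motif in capitals and 30 bases on each side in lower case. For Hspa5 the match alone is shown, since it lies in an annotated exon of the gene's own transcript Hspa5-201.
Hspa5, chr2:34772025-34772043, plus strand, match: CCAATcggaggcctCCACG
Pdia6, chr12:17266461-17266539, plus strand: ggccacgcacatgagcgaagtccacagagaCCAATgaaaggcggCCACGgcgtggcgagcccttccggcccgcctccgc
Canx, chr11:50325770-50325848, minus strand: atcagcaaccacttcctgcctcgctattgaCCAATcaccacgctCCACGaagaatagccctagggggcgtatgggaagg
Calr, chr8:84847045-84847123, minus strand: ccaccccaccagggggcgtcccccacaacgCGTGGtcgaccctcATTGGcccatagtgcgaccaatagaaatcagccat
Creld2, chr15:88819490-88819568, plus strand: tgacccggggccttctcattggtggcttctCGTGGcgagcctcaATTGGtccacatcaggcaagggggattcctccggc
In Calr and Creld2 the motif runs on the opposite strand of the gene, so it reads as its reverse complement.

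ATF4 binds composite sites with a C/EBP partner, searched for as TGATGNAAT and TGATGNAAC. The first was in Pycr1 and in 293 of 27025 genes (1.08%), and the second was in Asns, Chac1, Herpud1 and Slc1a4 and in 235 genes (0.87%). The match of Pycr1 is also the stricter form TGATGCAAT, which overlaps the first form and was in 60 genes (0.222%). The second form of the ER stress element, ATTGG, any base, then CCACG, was in Herpud1 and in 12 genes (0.0444%). The XBP1 or ATF6 element TGACGTGG was in none of the 35 members' promoters and in 193 genes (0.714%). These lines show the matches in the same way, with the match alone for Asns and Slc1a4. The Asns match lies in an annotated exon of the gene's own transcript Asns-201, and the Slc1a4 match runs across the gene's annotated start.
Asns, chr6:7693224-7693232, minus strand, match: TGATGaAAC
Pycr1, chr11:120643813-120643881, minus strand: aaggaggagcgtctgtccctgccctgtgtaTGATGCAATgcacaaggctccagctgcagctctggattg
Chac1, chr2:119351018-119351086, plus strand: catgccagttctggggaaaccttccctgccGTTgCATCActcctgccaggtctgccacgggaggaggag
Slc1a4, chr11:20332710-20332718, minus strand, match: GTTgCATCA
Herpud1, chr8:94386286-94386417, plus strand: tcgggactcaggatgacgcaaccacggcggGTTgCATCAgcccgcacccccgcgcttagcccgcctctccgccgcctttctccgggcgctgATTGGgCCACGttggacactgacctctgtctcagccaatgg
In Chac1, Slc1a4 and Herpud1 the composite site reads as its reverse complement. Herpud1 holds both kinds of site, the ATF4 form first and the second ER stress form nearer the start. A match says that these letters are present, not that a factor was bound in this skin.

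**Figure D1:**
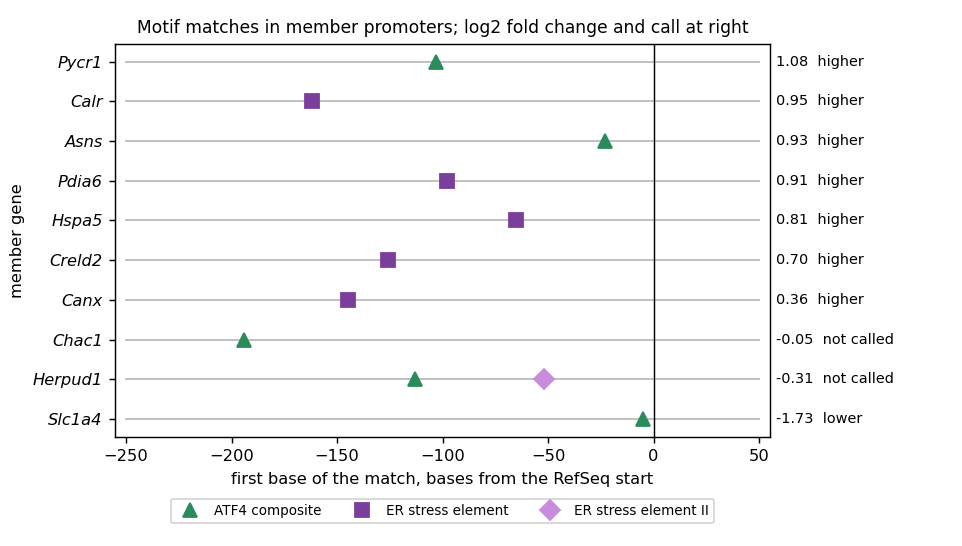
Position of each motif match in the members' promoters (first base of the match in bases from the RefSeq start, the vertical line), with the log2 fold change of the gene's level, DPCP over control, and its call at the right. The 5 genes with the ER stress element were all called higher, with log2 fold changes of 0.36 to 0.95. The chaperones Pdia4, Sdf2l1 and Pdia3, whose promoters hold no match and are not drawn, were called higher too (0.77, 0.65 and 0.63). The genes with an ATF4 composite site range from 1.08 for Pycr1 to -1.73 for Slc1a4.

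In DPCP skin the chaperones of the ER and most of the enzymes and transporters of amino acid supply were at a higher level, while Ern1, Atf6, Xbp1, Ddit3 and Chac1 were not called. Levels are given as CPM, the gene's counts per 1000000 counts of the library's scaled total. Differences are log2 fold changes of DPCP over control with their standard error (SE), and a gene was called where edgeR's adjusted p over all 18259 tested genes was under 0.05. All 40 members passed the filter on low counts. Of these, 25 were called higher (62.5%), beside 22.8% of all tested genes, and 3 were called lower (7.5%), beside 23.3% of all tested genes. The remaining 12 were not called. The members were chosen with earlier results of these data known, so the comparison with all tested genes is a description only. The members' median log2 fold change was 0.49, and that of all tested genes was -0.01. In 28 of the 40 members all 3 DPCP libraries lay above all 3 control libraries, beside 28.6% of all tested genes. In 3 of the 40 all lay below, beside 29.4% of all tested genes. Called and at least 2-fold apart were 5 members in the higher direction, beside 7.89% of tested genes, and 1 in the lower direction, beside 9.15%. These shares of all tested genes also stand beside the counts by role below. The skin was measured in bulk, so more cells of a type and more RNA per cell, or fewer and less, cannot be told apart in any of these values.

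Library totals were 28346992 to 38846787 counts, and 3 counts, the limit that a count of 0 allows, were worth 0.0820 to 0.102 CPM. That limit covers counting error only. Keratinocyte transcripts were abundant: the 9 keratinocyte markers summed to 26680 to 33590 CPM in control and 31920 to 36530 CPM in DPCP libraries. Of these 9, Krt14 was called higher (log2 fold change 1.87), and Krt10, Krt15, Dsg1a and Krt1 were called lower (-2.54, -1.77, -1.36 and -0.76). The part of the keratinocyte genes in the members' results was not tested. The 6 skeletal muscle markers summed to 8232 to 10950 CPM in control and 2098 to 4321 CPM in DPCP libraries, and all 6 were called lower. The part of the muscle genes in the members' results was not tested. The 5 tested neutrophil markers were all called higher. DPCP replicate 2 stood apart in the share of counts from 1 ribosomal RNA gene, 2.46%. That share was 0.420% and 0.489% in DPCP replicates 1 and 3, and 0.167% to 0.285% over the control libraries. Without that library 24 members were called higher and 2 lower.

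**Figure D2:**
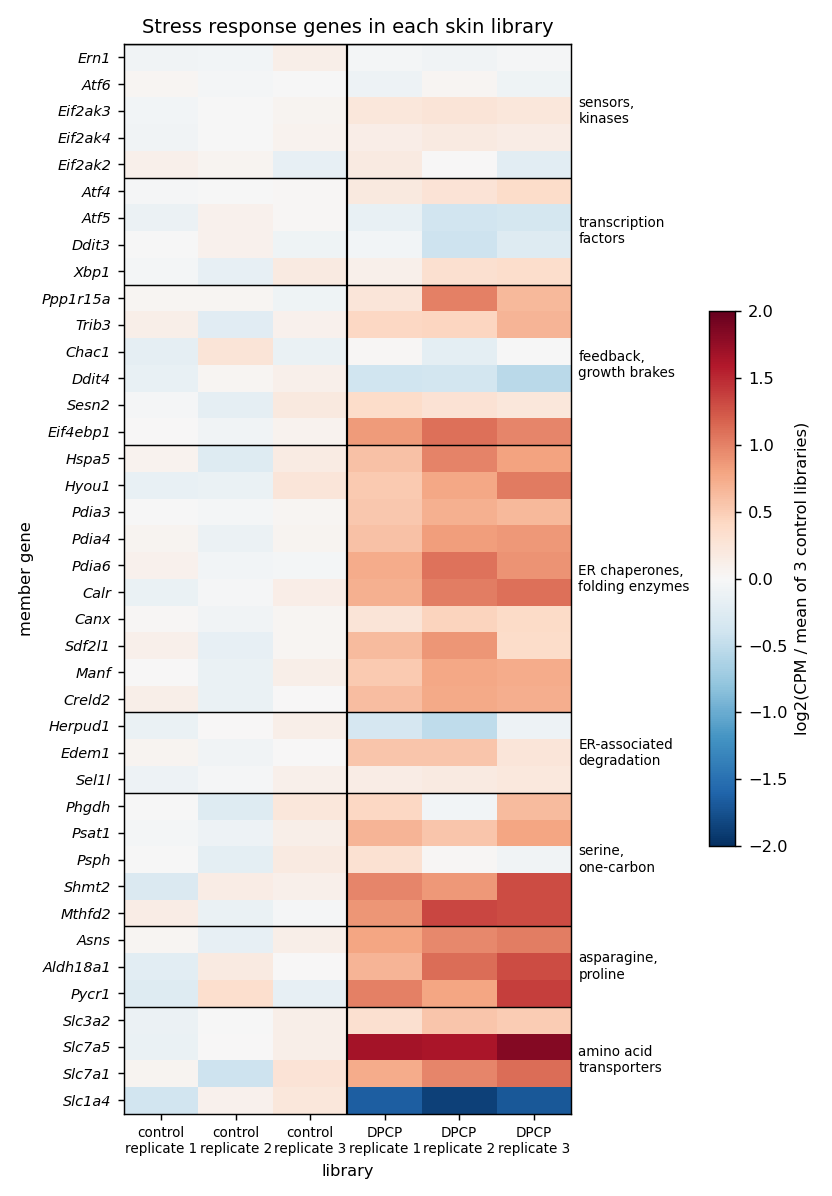
Level of each member in each library, as log2 of its CPM over the mean of the 3 control libraries (colour scale from -2 to 2), grouped by role. The block of chaperones is high in all 3 DPCP libraries, palest in DPCP replicate 1 in most rows, and Slc1a4 is the darkest blue row in DPCP skin.

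Of the 5 sensors and eIF2alpha kinases, 1 was called higher and none lower, and their median log2 fold change was 0.00. Ern1, which encodes IRE1, was at 36.4, 36.7 and 41.1 CPM in control and 37.0, 36.2 and 37.6 CPM in DPCP libraries. Atf6 was at 86.4, 82.1 and 83.5 CPM in control and 78.3, 86.0 and 79.4 CPM in DPCP libraries. The groups overlap in both genes, with log2 fold changes of -0.05 ± 0.09 (SE) for Ern1 and -0.05 ± 0.08 for Atf6 (adjusted p = 0.692 and 0.641). Eif2ak2, which encodes PKR, a kinase activated by double-stranded RNA, was at 45.8, 44.6 and 38.14 CPM in control and 48.4, 43.0 and 37.1 CPM in DPCP libraries. It overlaps too, with a log2 fold change of 0.00 ± 0.12, and without control replicate 3 it was -0.08.

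The kinases PERK and GCN2 had slightly higher transcript levels in every DPCP library than in any control library. Eif2ak3 (PERK; chr6:70844515-70905245) was at 28.3, 29.3 and 30.7 CPM in control and 34.4, 35.3 and 34.5 CPM in DPCP libraries. Its log2 fold change of 0.24 ± 0.08 was just past the threshold (adjusted p = 0.0371), and the call was lost when any single library was left out (adjusted p = 0.0605 to 0.106). The call also rested on the scaling, since with library totals alone the log2 fold change was 0.17 (adjusted p = 0.127). Of its exon bases, 485 (8.0%) are shared with a gene on the opposite strand, Gm43292, where reads of either gene were not counted. Eif2ak4 (GCN2), the sensor of uncharged tRNA, was at 11.6, 12.2 and 12.9 CPM in control and 13.4, 13.9 and 13.5 CPM in DPCP libraries. These groups did not overlap, but the difference of 0.15 ± 0.11 on the log2 scale was not called (adjusted p = 0.279).

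Among the 4 transcription factors, Atf4 was called higher and Atf5 lower, and Ddit3 and Xbp1 were not called. Atf4 (chr15:80255184-80257541) was at 158, 158 and 163 CPM in control and 182, 193 and 206 CPM in DPCP libraries. All DPCP libraries were higher, by 0.28 ± 0.08 on the log2 scale (adjusted p = 0.0217), a 1.22-fold difference. The call was lost without control replicate 1 (adjusted p = 0.0618), DPCP replicate 2 (0.0555) or DPCP replicate 3 (0.0623), and with library totals alone (0.0675). Atf5, a relative of Atf4 that is also translated under stress, fell from 88.0 ± 6.67 CPM (SD, n = 3) to 71.8 ± 6.25 CPM, a log2 fold change of -0.29 ± 0.10 (adjusted p = 0.0356). That call was lost without control replicate 2 (adjusted p = 0.127), control replicate 3 (0.0923), DPCP replicate 2 (0.0980) or DPCP replicate 3 (0.107). Atf5 also shares 82 exon bases with Nup62 and Il4i1 on the opposite strand.

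Ddit3 (chr10:127290774-127296288) encodes CHOP, the factor that PERK and ATF4 signalling is known to raise when stress is severe. It was at 13.5, 14.3 and 12.8 CPM in control and 13.0, 10.1 and 11.4 CPM in DPCP libraries. The groups overlap, since DPCP replicate 1 lies within the control range, and the log2 fold change was -0.24 ± 0.13 (adjusted p = 0.173). The second Ddit3 row is a gene of 105 bases that lies wholly within exons of the first. It had a count of 0 in all 6 libraries, and reads over those bases were counted for neither gene. Xbp1 (chr11:5520659-5525893) was at 221, 204 and 258 CPM in control and 244, 284 and 291 CPM in DPCP libraries. Here DPCP replicate 1 lies below control replicate 3, and the log2 fold change of 0.26 ± 0.12 was not called (adjusted p = 0.0946). Without control replicate 3 it was 0.36 (adjusted p = 0.0418), and without DPCP replicate 1 it was 0.34 (adjusted p = 0.0455). Spliced and unspliced Xbp1 transcripts are not separated in counts per gene.

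Of the 6 genes that feed back on the response or hold growth in check, 3 were called higher and 1 lower. Eif4ebp1, which encodes an inhibitor of cap-dependent translation and is a known ATF4 target, was called higher by 0.98 ± 0.09 on the log2 scale (adjusted p = 0.0001). It was at 46.2, 43.6 and 48.3 CPM in control and 83.2, 99.2 and 90.3 CPM in DPCP libraries, so every DPCP library was well above control. Ppp1r15a (GADD34), the phosphatase subunit that reverses eIF2alpha phosphorylation, was called higher by 0.67 ± 0.17 (adjusted p = 0.0124). Its DPCP libraries spread more than its control libraries, with 42.9, 73.1 and 56.8 CPM beside 37.2, 37.2 and 34.2 CPM. Trib3, a pseudokinase that restrains ATF4 and CHOP, was called higher by 0.52 ± 0.15 (adjusted p = 0.0199), from 8.38 ± 1.06 to 11.99 ± 1.27 CPM (SD, n = 3). Its call was lost without control replicate 2 (adjusted p = 0.0586) or DPCP replicate 3 (0.0619).

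Ddit4, known as REDD1, an inhibitor of the growth kinase mTORC1, fell by 0.43 on the log2 scale (SE 0.10, adjusted p = 0.00653). It was at 51.2, 58.7 and 61.1 CPM in control and 43.3, 44.1 and 39.2 CPM in DPCP libraries, with no overlap. Sesn2, another mTORC1 inhibitor and leucine sensor, lay at 26.8 to 34.8 CPM in control and 35.6 to 39.2 CPM in DPCP libraries. The groups did not overlap, yet its log2 fold change of 0.29 ± 0.11 was not called (adjusted p = 0.0561). Leaving out control replicate 3 made it a call (log2 fold change 0.40, adjusted p = 0.0220). Chac1, which degrades glutathione and is among the known targets of ATF4, was at 5.04 to 6.83 CPM in control and 4.97 to 5.798 CPM in DPCP libraries, and its log2 fold change was -0.05 ± 0.17 (adjusted p = 0.821).

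All 10 ER chaperones and folding enzymes were called higher, and in each of them every DPCP library lay above every control library. Their summed level was 2332, 2170 and 2481 CPM in control and 3448, 4214 and 4060 CPM in DPCP libraries. The median log2 fold change of the 10 was 0.73, and their range was 0.36 to 0.95. Hspa5 (chr2:34771970-34777547) encodes BiP, the Hsp70 chaperone of the ER that also holds the sensors inactive. It was at 552, 442 and 588 CPM in control and 793, 1054 and 925 CPM in DPCP libraries, a log2 fold change of 0.81 ± 0.14 (adjusted p = 0.00221). The lowest DPCP library, replicate 1, was still above the highest control library. Hyou1, the large Hsp70-like partner of BiP, was called higher by 0.79 ± 0.15 (adjusted p = 0.00348).

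The lectin chaperones calreticulin (Calr) and calnexin (Canx) retain glycoproteins until they fold, and both were called higher. Calr was at 418, 451 and 503 CPM in control and 746, 930 and 983 CPM in DPCP libraries, a log2 fold change of 0.95 ± 0.13 (adjusted p = 0.000569). Canx was at 351 to 381 CPM in control and 440 to 504 CPM in DPCP libraries, with the smallest log2 fold change of the 10, 0.36 ± 0.09 (adjusted p = 0.0119). The disulfide isomerases Pdia6, Pdia4 and Pdia3 were called higher by 0.91 ± 0.11, 0.77 ± 0.10 and 0.63 ± 0.09 (adjusted p = 0.000292, 0.000544 and 0.000672). Creld2, Manf and Sdf2l1, small ER proteins known as sensitive markers of ER stress, were called higher by 0.70 ± 0.09, 0.69 ± 0.10 and 0.65 ± 0.14 on the log2 scale (adjusted p = 0.000585, 0.000959 and 0.00619).

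Levels were compared between genes after division by the merged length of all annotated exons. Exon bases shared with another gene add to this length but lose their reads, so the ranks are approximate. On that scale Calr was the highest member in both groups, at 158.8 CPM per kilobase in control and 307.8 CPM per kilobase in DPCP skin. Pdia3 and Hspa5 followed in control, at 133.8 and 124.7 CPM per kilobase, and changed places in DPCP skin, at 207.4 and 218.5 CPM per kilobase. Their per-gene SDs were 10.9 CPM for Pdia3 and 76.1 CPM for Hspa5 in control, so the order of those 2 neighbours is within the spread of Hspa5. Atf4 and Xbp1 lay at 67.6 and 70.1 CPM per kilobase in control and at 82.2 and 84.0 CPM per kilobase in DPCP skin. Ddit3, at 7.89 and 6.70 CPM per kilobase, ranked 29 of 40 in control and 31 in DPCP skin. Pycr1 was the lowest of the 40 in both groups, at 0.381 and 0.804 CPM per kilobase.

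**Figure D3:**
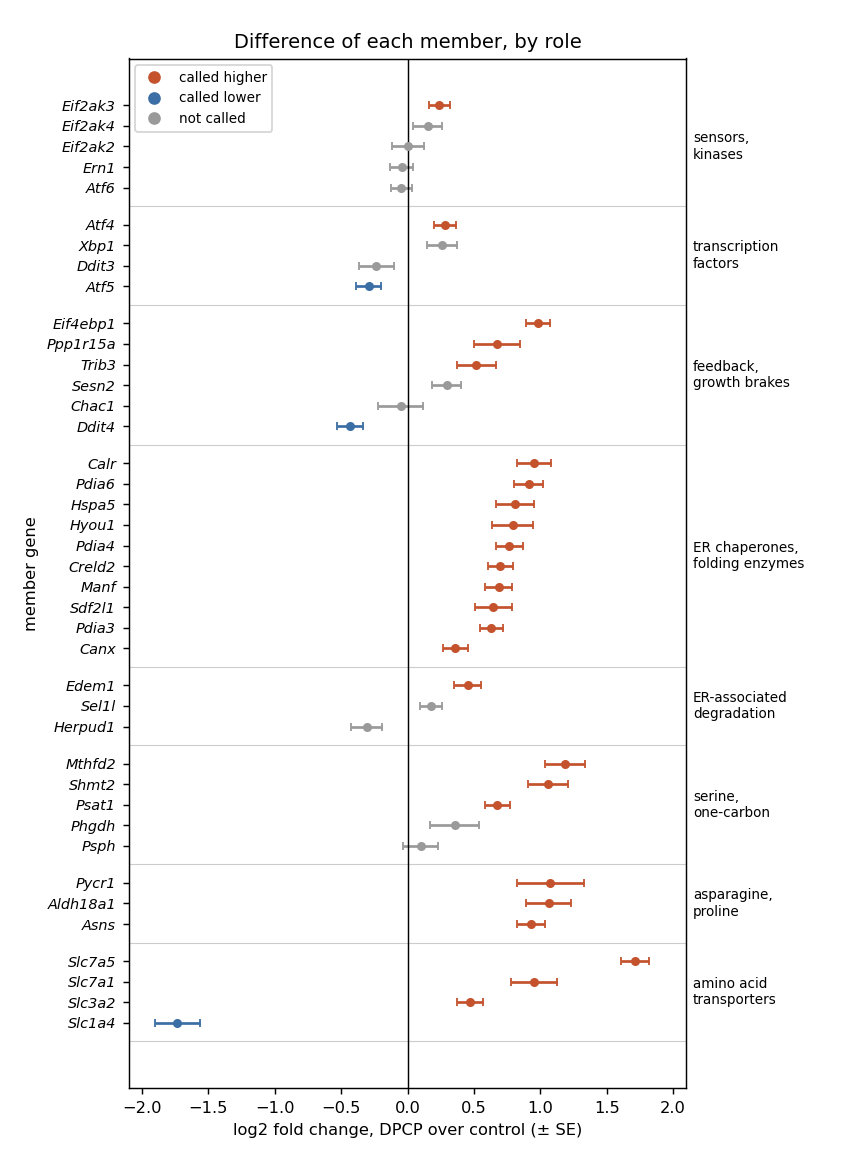
Log2 fold change of each member, DPCP over control, with its standard error as the bar (n = 3 libraries per group), ordered within roles; orange marks members called higher, blue called lower and grey not called. All 10 chaperones lie between 0.36 and 0.95, the sensors and kinases between -0.05 and 0.24, and the transporters hold both extremes, 1.71 for Slc7a5 and -1.73 for Slc1a4.

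Plasma cells, which secrete antibodies, carry much ER, and their markers were read beside the chaperones. Of 7 plasma cell markers, 6 were tested, 3 were called higher (Derl3, Sdc1 and Prdm1) and 1 lower (Ighm). The summed level of the 7 markers was 793 to 859 CPM in control and 1115 to 1361 CPM in DPCP libraries, most of it from Sdc1, a syndecan that keratinocytes also make. Jchain, the joining chain of secreted antibodies, lay at 0.499 to 1.40 CPM in control and 0.577 to 2.38 CPM in DPCP libraries. Mzb1 was at 0.200 to 0.447 CPM in control and 0, 0.202 and 0.418 CPM in DPCP libraries. Of the immunoglobulin genes, Ighm was at 68.7 to 114.6 CPM in control and 28.5 to 71.2 CPM in DPCP libraries. Igkc was at 1.80 to 5.44 CPM in control and 2.86 to 9.84 CPM in DPCP libraries (log2 fold change 1.11, adjusted p = 0.11, not called). Of 7 fibroblast markers, 2 were called higher (Col3a1 1.11 and Pdgfra 0.89) and 1 lower (Dpt -1.22), and 4 were not called. Of 5 endothelial markers, 2 were called higher and 1 lower. Of 6 macrophage markers, 2 were called higher and none lower. The part of plasma cells or of these other cells in the chaperone result was not tested.

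ER-associated degradation returns misfolded proteins to the cytosol for the proteasome, and 1 of its 3 members was called higher. Edem1, a lectin that marks glycoproteins for degradation, was called higher by 0.45 ± 0.10 on the log2 scale (adjusted p = 0.00754), from 73.5 ± 3.15 to 100.5 ± 12.1 CPM (SD, n = 3). Sel1l, the scaffold of the HRD1 ubiquitin ligase, lay at 122 to 140 CPM in control and 145 to 150 CPM in DPCP libraries. Its groups did not overlap, but its log2 fold change of 0.18 ± 0.08 was not called (adjusted p = 0.108). Herpud1, a membrane protein of the same complex whose promoter holds both motifs printed above, was at 106, 117 and 126 CPM in control and 91.9, 81.6 and 108 CPM in DPCP libraries. Its log2 fold change was -0.31 ± 0.12 (adjusted p = 0.0608). Without DPCP replicate 3 it was -0.42 and called lower (adjusted p = 0.0212), and with library totals alone it was -0.38 (adjusted p = 0.0330).

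Of the 5 enzymes that make serine from a glycolytic intermediate and pass its carbon to folate, 3 were called higher and none lower. Mthfd2 (chr6:83305691-83325908), the mitochondrial methylene-tetrahydrofolate dehydrogenase, was at 9.39, 7.76 and 8.35 CPM in control and 15.7, 21.3 and 21.0 CPM in DPCP libraries. Its log2 fold change was 1.19 ± 0.15 (adjusted p = 0.000461), with DPCP replicate 1 the lowest of its group. Shmt2 (chr10:127517123-127522444), which splits serine into glycine and a one-carbon unit in mitochondria, was at 33.7, 45.3 and 44.1 CPM in control and 80.5, 75.1 and 101 CPM in DPCP libraries. It was called higher by 1.06 ± 0.15 (adjusted p = 0.000688), and the groups are far apart.

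Of the 3 enzymes of serine synthesis itself, only the middle one was called. Psat1 was at 109 to 126 CPM in control and 170 to 199 CPM in DPCP libraries, a log2 fold change of 0.68 ± 0.10 (adjusted p = 0.000768). Phgdh, the first and committed step, lay at 40.0 to 56.4 CPM in control and 46.2 to 74.1 CPM in DPCP libraries, with the groups overlapping and a log2 fold change of 0.35 ± 0.18 (adjusted p = 0.145). Without DPCP replicate 2, its lowest DPCP library, it was 0.52 and called (adjusted p = 0.0278). Phgdh has stretches of at least 95% identity in 13 processed pseudogenes, so its count is uncertain. Psph, the last step, lay at 35.6 to 46.0 CPM in control and 38.8 to 50.5 CPM in DPCP libraries (log2 fold change 0.10 ± 0.13, adjusted p = 0.560), and it shares 452 exon bases (10.4%) with Cct6a on the opposite strand.

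Asparagine and proline synthesis held 3 members, and all 3 were called higher without overlap between the groups. Their summed level was 56.4, 58.1 and 61.7 CPM in control and 99.5, 119 and 130 CPM in DPCP libraries. Asns, asparagine synthetase, the classical target of the amino acid response, was at 36.4, 31.7 and 38.8 CPM in control and 61.7, 69.5 and 72.6 CPM in DPCP libraries (log2 fold change 0.93 ± 0.11, adjusted p = 0.000233). Aldh18a1 (chr19:40550257-40588463), which makes the proline precursor from glutamate, was at 18.7, 24.5 and 21.6 CPM in control and 34.8, 47.0 and 53.7 CPM in DPCP libraries (log2 fold change 1.06 ± 0.17, adjusted p = 0.00123). The DPCP libraries of Aldh18a1 spread widely, yet the lowest lies above the highest control. Pycr1 (chr11:120635712-120643769), the mitochondrial last step of proline synthesis, was at 1.26, 1.90 and 1.342 CPM in control and 3.0, 2.60 and 3.90 CPM in DPCP libraries (log2 fold change 1.08 ± 0.25, adjusted p = 0.00857).

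The 4 amino acid transporters held both the largest rise and the largest fall of the 40 members. Slc7a5 (LAT1; chr8:121881150-121907694), the exchanger that imports leucine and other large neutral amino acids, was at 14.9, 16.5 and 17.7 CPM in control and 51.6, 50.9 and 58.4 CPM in DPCP libraries. This was a log2 fold change of 1.71 ± 0.10 (adjusted p = 1.37e-05), a 3.28-fold difference, and the libraries within each group lay close together. Slc3a2 (CD98), the heavy chain that LAT1 and related light chains need at the cell surface, was called higher by 0.47 ± 0.10 on the log2 scale (adjusted p = 0.00502), from 82.1 ± 6.90 to 113.5 ± 9.30 CPM (SD, n = 3). Slc7a1, the arginine and lysine transporter CAT1, was at 27.97 to 45.2 CPM in control and 62.1 to 80.5 CPM in DPCP libraries, a log2 fold change of 0.95 ± 0.17 (adjusted p = 0.00244).

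Slc1a4 (ASCT1; chr11:20302180-20332713), which exchanges serine, alanine and other small neutral amino acids, went the other way. It was at 19.3, 26.5 and 29.5 CPM in control and 7.99, 6.89 and 7.79 CPM in DPCP libraries. Its log2 fold change was -1.73 ± 0.17 (adjusted p = 0.000112), the only fall of at least 2-fold among the members. Its promoter holds a site of the ATF4 composite form, as do those of Asns and Pycr1, which were called higher, and of Chac1 and Herpud1, which were not called. By level per kilobase Slc1a4 moved from rank 30 of 40 in control to rank 38 in DPCP skin, and Slc7a5 moved from rank 34 to rank 25.

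**Figure D4:**
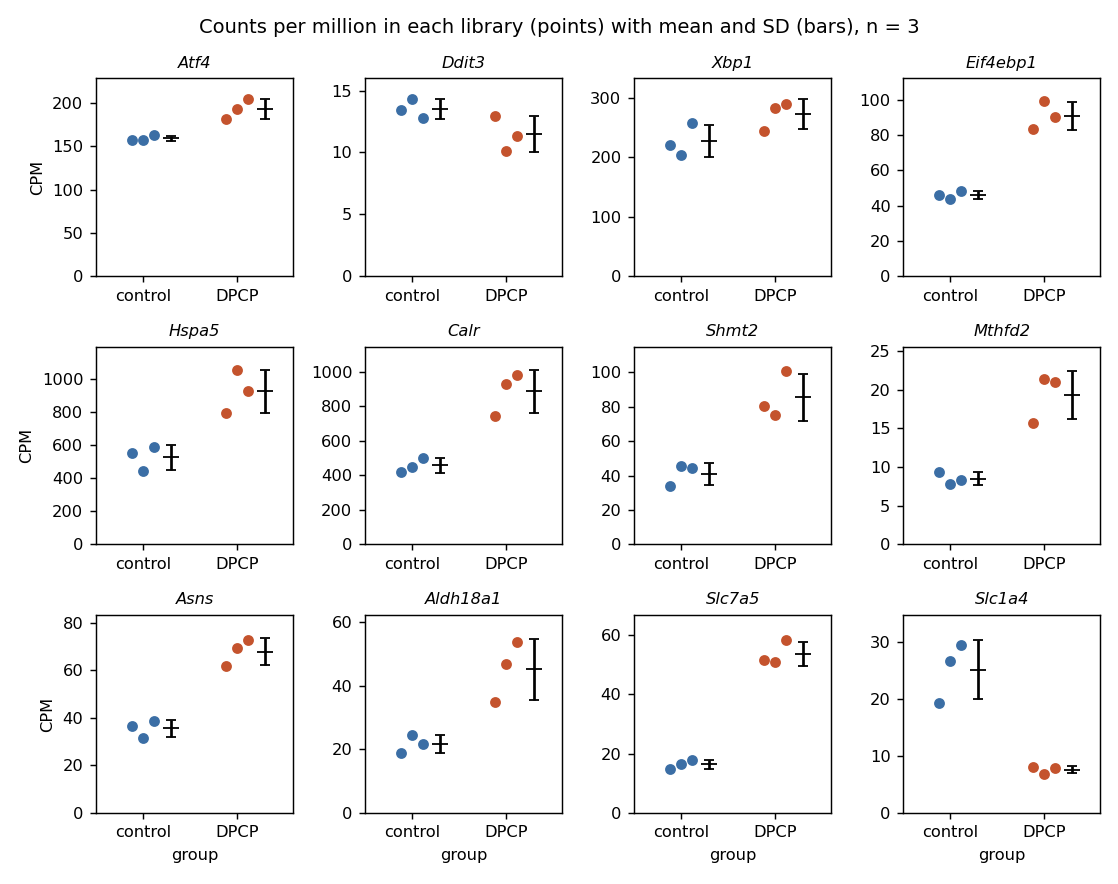
CPM of 12 members in each library (points; blue control, orange DPCP), with the group mean and SD as the bar (n = 3 per group) and axes that start at 0. Eif4ebp1, Asns and Slc7a5 show DPCP points far above control, Slc1a4 shows them far below, and Ddit3 and Xbp1 overlap.

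DPCP replicate 1 was most often the lowest of the 3 DPCP libraries. Of the 25 members called higher, replicate 1 was the lowest DPCP library in 19, replicate 2 in 4 and replicate 3 in 2. The highest DPCP library of these members was replicate 2 in 13 and replicate 3 in 12. Summed over all 40 members the level was 5469, 6314 and 6253 CPM in DPCP replicates 1, 2 and 3, and 3944, 3789 and 4266 CPM in control. The neutrophil markers took the values 451, 1203 and 717 CPM in the same DPCP libraries, and 17.3, 16.0 and 23.4 CPM in control. Ly6g, a defining neutrophil gene, was at 0 in 2 control libraries and was not tested, and Mmp8 was at 0 in 1 control library. The order of these markers, replicate 1 lowest and replicate 2 highest, was shared by 11 of the 25 members called higher. They were Eif2ak3, Ppp1r15a, Eif4ebp1, Mthfd2, Slc3a2 and 6 of the 10 chaperones, Hspa5, Pdia3, Pdia6, Canx, Manf and Creld2. The same order was seen in the summed endothelial markers (321, 382 and 360 CPM in DPCP replicates 1, 2 and 3). It was also seen in the share of the ribosomal RNA gene (0.420%, 2.46% and 0.489%). The share of all tested genes with this order was not computed. Nor were the shares with each DPCP library lowest or highest, so these counts may not be particular to the members. The part of the neutrophil genes, the endothelial genes or that ribosomal share in these results was not tested. The spread within groups was small for most members, with a median coefficient of variation of 8.81% in control and 9.22% in DPCP libraries.

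The wider pathway was read through 110 other genes in 7 lists, of which 108 were tested. Of these, 61 were called higher and 18 lower, beside 22.8% and 23.3% of all tested genes, with a median log2 fold change of 0.36. The same shares of all tested genes stand beside the counts of each list below. These lists were chosen with earlier results of these data known. Among 16 other folding genes of the ER, 14 were called higher and none lower, with a median of 0.48, and Ero1b and Sil1 were not called (-0.08 and -0.01). P4hb, the disulfide isomerase that is also a subunit of collagen prolyl hydroxylase, was at 455, 456 and 477 CPM in control and 906, 1049 and 986 CPM in DPCP libraries. It was called higher by 1.08 ± 0.09 (adjusted p = 6.63e-05). Sec61b, a subunit of the channel through which new proteins enter the ER, was called higher by 0.94 ± 0.10 (adjusted p = 0.000163).

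Of 14 other ER-associated degradation genes, 5 were called higher and none lower, and the median was 0.25. Vcp, the ATPase that pulls proteins from the membrane, and its adaptor Nploc4 were called higher by 0.31 ± 0.09 each (adjusted p = 0.0188 and 0.0204). Vcp lost its call without control replicate 2 or DPCP replicate 3 and with library totals alone, and Nploc4 lost it without control replicate 1, control replicate 2 or DPCP replicate 3 and with library totals alone.

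Among 14 other sensors and processing factors, 13 were tested, 5 were called higher and 3 lower, and Ern2 had too few counts. Eif2s1, which encodes eIF2alpha itself, was called higher by 0.70 ± 0.11 (adjusted p = 0.0011), and Ppp1r15b, the constitutive partner of its phosphatase, by 0.53 ± 0.09 (adjusted p = 0.00188). Dele1, which relays mitochondrial stress to the kinase HRI, was called lower, with a log2 fold change of -0.44 ± 0.11 (adjusted p = 0.0115). Mbtps1, the first protease that cuts ATF6, was called lower as well (-0.34 ± 0.09, adjusted p = 0.018). The Mbtps1 call was lost without control replicate 2, control replicate 3, DPCP replicate 1 or DPCP replicate 2 (adjusted p = 0.0515 to 0.0705).

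The 17 other stress-induced regulators split, with 6 called higher and 5 lower. Slc7a11 (xCT), the cystine importer that both ATF4 and NRF2 are known to induce, was at 2.25, 1.13 and 3.07 CPM in control and 24.4, 79.2 and 53.2 CPM in DPCP libraries. Its log2 fold change of 4.59 ± 0.49 (adjusted p = 0.000171) was the largest in the 7 lists. Its DPCP libraries stand in the same order as the summed neutrophil and endothelial markers, whose part in it was not tested. Cebpb, a C/EBP partner of ATF4, was called higher by 0.80 ± 0.09 (adjusted p = 0.000179). Vldlr, a lipoprotein receptor, and Bbc3, the death gene PUMA that CHOP is known to raise, were called lower, with log2 fold changes of -1.05 ± 0.10 and -1.06 ± 0.27 (adjusted p = 0.000105 and 0.0123).

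The cytosolic aminoacyl-tRNA synthetases charge tRNAs with amino acids. Of 20 tested, 18 were called higher and none lower, with a median log2 fold change of 0.52. Qars1 was not called, at 0.22 ± 0.08 (adjusted p = 0.0644). In all 20 genes every DPCP library lay above every control library, beside 28.6% of all tested genes for which this held. Vars1 and Nars1 had the smallest p, with log2 fold changes of 0.83 ± 0.09 and 0.70 ± 0.09 (adjusted p = 0.000242 and 0.000411). The summed level of the 20 was 1746, 1657 and 1806 CPM in control and 2267, 2505 and 2562 CPM in DPCP libraries.

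Of 16 other serine and one-carbon genes, 10 were called higher and 3 lower, with a median of 0.48. Mthfd1l, the mitochondrial enzyme that releases formate after Mthfd2, was called higher by 2.28 ± 0.18 (adjusted p = 3.85e-05), from 4.74 ± 0.69 to 23.1 ± 4.19 CPM (SD, n = 3). Tyms, thymidylate synthase, which uses a one-carbon unit to make a DNA base and is high in dividing cells, was called higher by 1.27 ± 0.09 (adjusted p = 3.09e-05). Amt, of the glycine cleavage system, was called lower, with a log2 fold change of -0.84 ± 0.22 (adjusted p = 0.0137), and lost its call without control replicate 3 (adjusted p = 0.0542). Beside these values, all 6 proliferation markers were called higher, and their summed level was 380 to 417 CPM in control and 904 to 973 CPM in DPCP libraries. Their part in the one-carbon result was not tested.

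The list of other amino acid synthesis and transport genes held more calls lower than higher. Of 13 listed, 12 were tested, 3 were called higher and 7 lower, and the median was -0.34. Slc7a8 (LAT2), a second light chain that pairs with Slc3a2, was called higher by 1.74 ± 0.25 (adjusted p = 0.000847). Prodh, which degrades proline, was called lower, with a log2 fold change of -1.19 ± 0.10 (adjusted p = 4.55e-05). Slc6a9, a glycine transporter, was lower too (-1.22 ± 0.17, adjusted p = 0.000645). Pycr3, an enzyme of proline synthesis, was called higher by 0.38 ± 0.12 (adjusted p = 0.0302), as were the members Aldh18a1 and Pycr1.

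**Figure D5:**
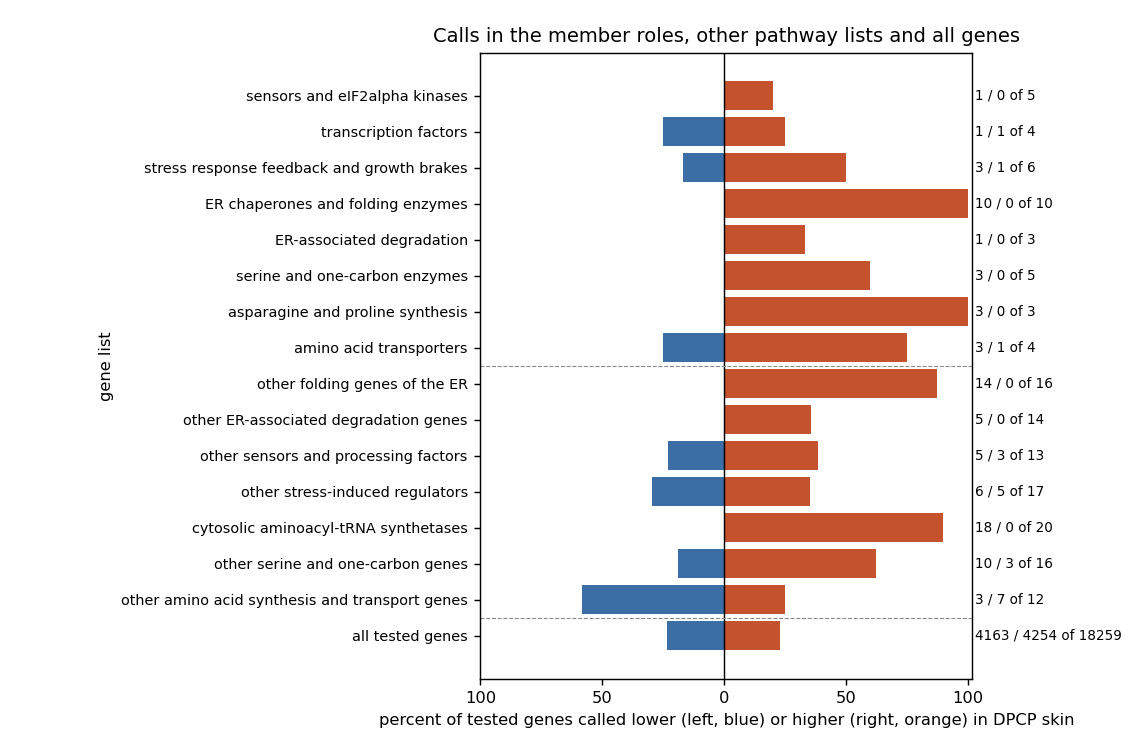
Percent of the tested genes in each list that were called higher (orange, right) or lower (blue, left) in DPCP skin, with the counts higher / lower of tested at the right; the first 8 bars are the members by role, the next 7 the other pathway lists, and the last all tested genes. The chaperones (10 of 10), the other folding genes (14 of 16) and the tRNA synthetases (18 of 20) extend far right of the 22.8% of all tested genes, and the other amino acid genes (7 of 12 lower) extend left.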

How the data were processed

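Whole dorsal skin was profiled by RNA sequencing of polyadenylated RNA in 6 libraries, 3 per group. The authors deposited raw counts of reads over each gene's exons. The counting tool was featureCounts 1.6.2, per the file headers, and its gene models were those of Ensembl release 102 on GRCm38. The command there sets no option for strand or read pairs, so mates were counted singly on either strand, and reads over several genes were not counted. A gene and an overlapping partner therefore lose reads where their exons meet, which touches 11 members. The submitters' processing notes also name DESeq2 1.34.0, StringTie 2.2.1, HISAT2 2.2.1, Trimmomatic 0.36 and mm10. Symbols were matched for 55141 of 55487 identifiers.

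Differences were tested on the counts as deposited with edgeR 4.0.16 in R 4.3.3 (quasi-likelihood F-test), with TMM factors, filterByExpr at its defaults, group as the only term and Benjamini-Hochberg adjustment over 18259 genes. Genes were called at an adjusted p under 0.05. SEs are the unshrunken log2 fold change over the root of F. The fit was also run on simulated data, in which far fewer genes changed than were called here. The outcome of that run is not reported here. Pairs of libraries within a group showed a chi-square per gene of 19.6 to 70.7, above counting noise, so none was treated as a copy.

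Every library's value is given for members called at a log2 fold change of at least 1 in size and for the sensors, Atf4, Ddit3, Xbp1 and Hspa5, with further members given where their libraries show more than a range. From each other list up to 2 called genes with the smallest p in each direction are named, except for some that are not reported here. Other genes named from a list (Ero1b, Sil1, Qars1, Pycr3 and markers) were chosen after their values were seen. The members and lists were chosen with earlier results of these data known. The alternatives were RLE, upper-quartile and no scaling factors, DESeq2 1.42.0, limma-voom (limma 3.58.1), no count filter, at least 1 CPM in a whole group, the replicate number as a block and each library left out. Promoters are from RefSeq, and the orientation of the printed ones was checked against each gene's own transcripts. Protein sequences were not used here.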

Additional observations from a re-analysis of the deposited data

How the results depend on the processing

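Of the 28 called members, 24 were called in the same direction under all 14 alternatives, and the exceptions Eif2ak3, Atf4, Atf5 and Trib3 are named with the libraries that decide them. Over the alternatives 22 to 26 members were called higher and 2 to 4 lower, and their median log2 fold change was 0.42 to 0.55. Restricted to the 29 members that share no exon base, an alternative chosen after seeing the data, 18 were called higher and 2 lower. The other pathway genes called lower numbered 18, and 10 to 14 when 1 library was left out, the lowest without control replicate 3, where fewer samples were tested. Only members that were not called changed sign. Left-out libraries gave -0.065 to 0.014 for Ern1, -0.092 to 0.101 for Eif2ak2, -0.12 to 0.111 for Chac1 and -0.015 to 0.196 for Psph (log2 fold change). Eif2ak2 was also -0.03 with upper-quartile factors and -0.075 with library totals alone. The labels state no pairing by replicate number, and correlations over so few libraries cannot decide it. Deviations of same-numbered libraries correlated at 0.071, 0.059 and 0.205. Control replicates 2 and 3 correlated best with the DPCP library of their own number, and control replicate 1 with DPCP replicate 2 (0.164). With the replicate block, 25 members were called higher and 3 lower, and Eif2ak2 was -0.003. In that fit Eif2ak3 (adjusted p = 0.0544) and Atf5 (0.0551) were not called, and Phgdh (0.0157) and Herpud1 (0.0310, lower) were. Sesn2 was called with RLE factors (adjusted p = 0.0485) and under the 1 CPM filter (0.0491), and Herpud1 was called lower with upper-quartile factors (0.0440). Eif2ak3 was not called with upper-quartile factors (adjusted p = 0.0524) or without the count filter (0.0992). The cause of these changes was not tested. Depth limits the members little, since the lowest, Pycr1, lay at 1.26 CPM or more, above the limit of 3 counts.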
